A study of Mus musculus with 3 samples.

Results

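Ribosome biogenesis is followed here through 32 mouse genes that were picked by name for their part in making ribosomes, out of 31054 features in the count matrices. All 32 were present in each matrix, and all 32 passed the filter on low counts in each of the 4 cell classes compared. The cells were taken from mouse forelimb buds at E9.5 (embryonic day). The control was 1 library of Esco2fl/fl embryos, which carry loxP-flanked Esco2 alleles and no Cre. The mutant was 2 libraries of Esco2fl/fl;Prrx1-CreTg/0 embryos, which carry the same alleles and 1 copy of a Cre transgene driven by a Prrx1 limb enhancer, active in limb bud mesenchyme. Esco2 acetylates cohesin so that sister chromatids stay joined after replication. Each library pooled 3 samples of 2 limb buds (6 limb buds, 2 male samples and 1 female), and the cells had been trypsinized and frozen before capture. Whether the 2 mutant pools came from separate litters is not stated, so p-values measure only the spread between these pools, which some fits pooled over genes.

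A ribosome is put together in the nucleolus, a body that forms around the ribosomal RNA genes. RNA polymerase I copies those genes into a long precursor, which small nucleolar ribonucleoproteins (snoRNPs) modify: the box C/D class adds methyl groups to ribose and the box H/ACA class turns uridine into pseudouridine. Separate sets of processing factors then cut and fold the precursor into the small and the large subunit. Fast growing embryonic cells make many ribosomes, MYC proteins raise the transcription of many of these genes, and a blocked assembly line is a known trigger of p53 through free ribosomal proteins. Cdkn1a, which encodes the cell cycle inhibitor p21, is the best known p53 target.

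Many of these genes are textbook MYC targets, and MYC with its partner MAX binds the hexamer CACGTG (the E-box, which reads the same on both strands). RefSeq promoter windows on GRCm38.p6, running from 250 bases before to 50 after the start site (300 bases), were at hand for 26 of the 32 genes, and 6 of these (23.1%) hold CACGTG in a window, against 8.09% of all 27025 genes. By window the shares are 6 of 28 (21.4%) and 7.15% of all 32851. No window was at hand for Npm1, Tcof1, Fbl, Rrp12, Rrs1 and Bop1. The hexamer with 12 bases on each side, or up to the end of the window, is shown 5′ to 3′ on the strand of the gene, with the E-box in capitals, since these members can be compared below with those that lack it. A match describes the letters only and is no evidence of binding.
Nop2, chr6:125131811-125131840, plus strand, 60 bases before the start site: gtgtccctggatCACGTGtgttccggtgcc
Pes1, chr11:3963965-3963994, plus strand, 2 bases after: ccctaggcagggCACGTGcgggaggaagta
Utp4, chr8:106893643-106893672, plus strand, 15 bases after: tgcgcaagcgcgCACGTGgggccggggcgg
Wdr43, chr17:71616220-71616249, plus strand, 17 bases after: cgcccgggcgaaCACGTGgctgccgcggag
Utp20, chr10:88826765-88826789, minus strand, 37 bases after: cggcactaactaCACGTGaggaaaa
Mybbp1a, chr11:72441355-72441376, plus strand, 40 bases after: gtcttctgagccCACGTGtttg

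Nop2, an rRNA methyltransferase of the large subunit, is the only one of the 6 with the E-box before its start site. Its last 200 bases before the start site (chr6:125131683-125131882) read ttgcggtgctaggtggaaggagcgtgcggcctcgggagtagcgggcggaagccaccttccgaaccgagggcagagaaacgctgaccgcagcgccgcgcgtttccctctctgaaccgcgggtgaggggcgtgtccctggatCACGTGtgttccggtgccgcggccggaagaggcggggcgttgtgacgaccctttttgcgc, with the same hexamer in capitals. Nop2 had log2 differences (mutant minus control) of -0.25 ± 0.30 (SE) in mesenchyme, -0.60 ± 0.23 in ectoderm and -0.52 ± 0.11 in endothelium, among the lower values of the 32. Utp4, a scaffold protein of small subunit assembly, had -0.07, 0.12 and -0.17, and was the 1 member that was higher in both mutants than in the control in ectoderm. Nop2, Utp4 and Polr1a are described for their sequence or level, chosen after their values were seen.

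Barcodes numbered 6527 in the control, 7219 in mutant 1 and 8755 in mutant 2, of which 4048, 3590 and 4684 were kept as single cells with at least 500 genes and under 10% mitochondrial UMIs (unique molecular identifiers, each standing for 1 captured RNA molecule). Cells were put in classes by 8 marker genes each. Mesenchyme (Prrx1, Tbx5, Lhx9 and others) had 1100, 1189 and 2183 cells in the control, mutant 1 and mutant 2, surface ectoderm (Epcam, Cdh1) 354, 434 and 380, endothelium (Cdh5, Emcn) 571, 411 and 445, and primitive erythroid cells (Klf1 and others) 427, 611 and 478. The samples are labelled as mesenchymal, and gated mesenchyme made up 27.2%, 33.1% and 46.6% of the kept cells. Libraries shared 65 to 117 barcodes pairwise, and 51 of the 427 control erythroid cells carried such a barcode. The Cre feature had 0 UMIs in control mesenchyme, 65 in mutant 1 and 133 in mutant 2, with at most 1 UMI in any other class. Esco2 was at 31.2 CPM (UMIs scaled to a common total per class and library) in control mesenchyme, 23.4 in mutant 1 and 21.7 in mutant 2. The sources used here do not say which part of Esco2 lies between the loxP sites, so 3′ tags do not check its deletion. Ectoderm differed in make-up: Epcam was at 549, 593 and 192 CPM and Krt8 at 249, 137 and 500 CPM in the control, mutant 1 and mutant 2. Markers of other classes moved too: Pax3 was at 1.86, 59.1 and 62.8 CPM and Lbx1 at 0.11, 15.9 and 9.91, both from the myogenic progenitor list, whose 8 genes summed to 90.03, 189 and 153 CPM, with Myf5 at or near 0 and Met (86.2, 106 and 75.5 CPM) as its most abundant gene. Upk3b was at 2.87, 1.97 and 88.9 CPM, in a coelomic epithelium list of 8 genes that summed to 246, 145 and 379 CPM. Their part in the ectoderm results was not tested. Within the expression cluster led by Trp63, Epcam and Wnt6 (248, 323 and 197 ectoderm cells), the median share of a cell's UMIs from the 32 genes was 0.89%, 0.72% and 0.73%. In a cluster led by Fgf8, Trp63 and Cntn5 (30, 78 and 71 ectoderm cells) it was 0.30%, 0.36% and 0.38%, with the control lowest. That cluster made up 8.47%, 18.0% and 18.7% of ectoderm, with median mitochondrial shares of 5.48%, 4.15% and 4.42% and ribosomal protein shares of 4.44%, 7.60% and 7.48%. A cluster led by Krt8, Krt18 and Tac2 held 16, 4 and 90 ectoderm cells. It made up 23.7% of ectoderm in mutant 2, where its median share from the 32 genes was 0.62%.

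Summed over the 32 genes, the level was lower in both mutants than in the control in ectoderm and endothelium, lower in mesenchyme mainly in mutant 1, and nearly equal in erythroid cells. In mesenchyme the 32 genes gave 13444 CPM in the control, 11692 in mutant 1 (87.0% of control) and 13176 in mutant 2 (98.0%). In ectoderm they gave 9959, 7675 (77.1%) and 7575 (76.1%). In endothelium they gave 12253, 10700 (87.3%) and 9850 (80.4%). Erythroid cells gave 6485, 6404 (98.8%) and 6111 (94.2%). Ncl and Npm1 supply more than the other 30 genes together in mesenchyme, but without them the mutants stood at 87.0% and 98.0% of control in mesenchyme, 74.4% and 83.4% in ectoderm, and 82.8% and 82.3% in endothelium, while erythroid cells were at 3196, 3196 and 3127 CPM. With 1 control library, an exact permutation test of control against mutants cannot go under p = 0.333, and a score over chosen genes was not tested. Fewer cells of an active type and less RNA per cell cannot be told apart in such sums.

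**Figure D1:**
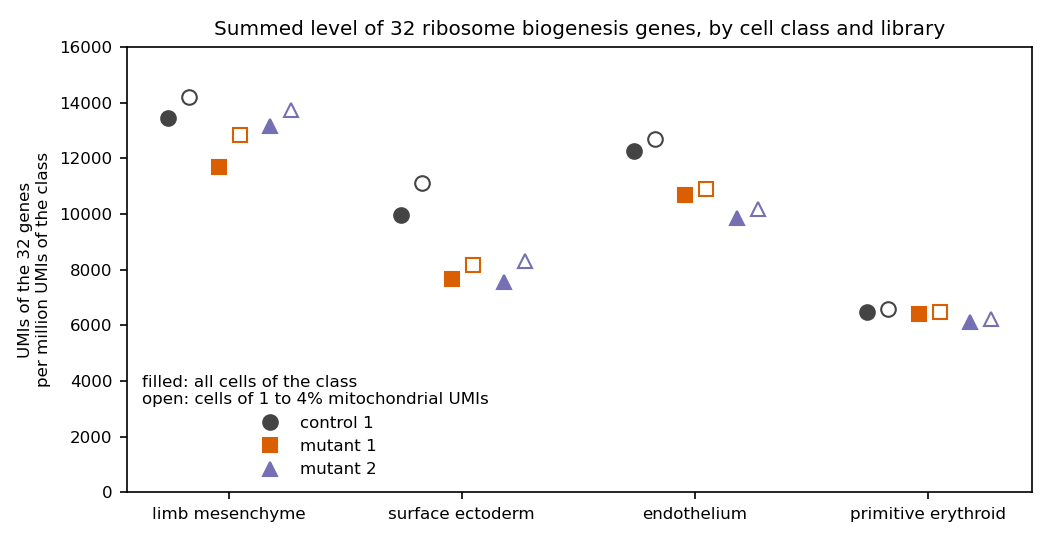
Summed CPM of the 32 ribosome biogenesis genes (y axis) in 4 cell classes (x axis), 1 point per library; filled points use all cells of a class and open points only cells of 1 to 4% mitochondrial UMIs. In ectoderm (9959 against 7675 and 7575) and endothelium (12253 against 10700 and 9850) both mutants lie below the control in all cells, while the filled erythroid points lie between 6111 and 6485.

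Single members were tested with edgeR's quasi-likelihood test on UMIs summed per class and library, with Benjamini-Hochberg adjustment over all genes. None of the 32 passed an adjusted p of 0.05 in any class. In mesenchyme 1.58% of the 10133 tested genes passed (0.632% as lower), and in each of the other classes 0 of 10754, 9755 and 7251 did. With an unadjusted p under 0.05, 1 member was lower in mesenchyme (2.27% of all genes were), 11 in ectoderm (2.49%), 15 in endothelium (3.86%) and 0 in erythroid cells (1.7%), and no member was higher. The lone control gives no spread of its own, so the test assumes that it varies like the mutants.

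The members leaned to lower values in 3 of the 4 classes. The median log2 difference over the 32 was -0.19 in mesenchyme, -0.39 in ectoderm, -0.31 in endothelium and 0.07 in erythroid cells, where the medians over all tested genes were -0.01, 0.02, 0.01 and -0.01. Taken against the control 1 mutant at a time, the medians were -0.31 and -0.05 in mesenchyme, -0.45 and -0.32 in ectoderm, -0.30 and -0.33 in endothelium, and 0.05 and 0.12 in erythroid cells for mutants 1 and 2. Mesenchyme, where Cre UMIs were found, had the widest gap between the 2 mutants. Without scaling factors between libraries (TMM), the erythroid median was -0.05 and that of all erythroid genes -0.13, so the sign of the erythroid value depends on the scaling while its place above the other genes does not. Without cells whose barcode occurs in another library, the medians were -0.19, -0.38, -0.30 and 0.11.

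Counting members that were lower in both mutants than in the control, 22 of 32 were in mesenchyme (27.4% of all tested genes were), 31 of 32 in ectoderm (33.6%), 32 of 32 in endothelium (34.9%) and 3 of 32 in erythroid cells (34.3%). The same 22 were lower in both mutants in mesenchyme, ectoderm and endothelium alike, against 13% of the 8856 genes tested in all 3 classes. The 3 classes share their libraries, and their counts are therefore not independent. The 10 members outside this count in mesenchyme were Mybbp1a, Ncl, Nhp2, Nolc1, Nop10, Nop14, Tcof1, Utp20, Utp4 and Wdr75, of which only Utp20 was higher in both mutants. These counts depended on depth: in cells of 20000 to 60000 UMIs, 6 of 32 were lower in both mutants in mesenchyme (24.2% of all genes), 15 in ectoderm (36.8%) and 9 in endothelium (44.5%), where the median turned to 0.15. Higher in both mutants were 1 of 32 in mesenchyme (27.8% of all genes), 1 in ectoderm (36.5%), 0 in endothelium (35.3%) and 21 in erythroid cells (29.2%).

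Whether the difference itself varied between classes was tested with interaction terms over 12 sums (4 classes in 3 libraries). No member passed in ectoderm against mesenchyme (0.0574% of 10456 genes did), in endothelium against mesenchyme (0.00956%) or in erythroid cells against mesenchyme (0.0287%). At an unadjusted p under 0.05 in edgeR's test, 1, 1 and 6 members were set apart. The share of all genes at that level was not counted, here or in the sums below. No excess of members can therefore be read from these counts. The median difference from mesenchyme was -0.24 in ectoderm, -0.15 in endothelium and 0.28 in erythroid cells. The lowest adjusted p of a member was 0.72, 0.98 and 0.81 in edgeR's test, so a difference of any class from mesenchyme was not established. In cells of 20000 to 60000 UMIs the medians were 0.01, 0.28 and 0.35. In cells of 1 to 4% mitochondrial UMIs, a choice made after seeing the data, they were -0.34, -0.17 and 0.23, with 14, 2 and 5 members at an unadjusted p under 0.05, and the lowest adjusted p of a member was 0.22 for ectoderm, 0.94 for endothelium and 0.67 for erythroid cells in edgeR's test.

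**Figure D2:**
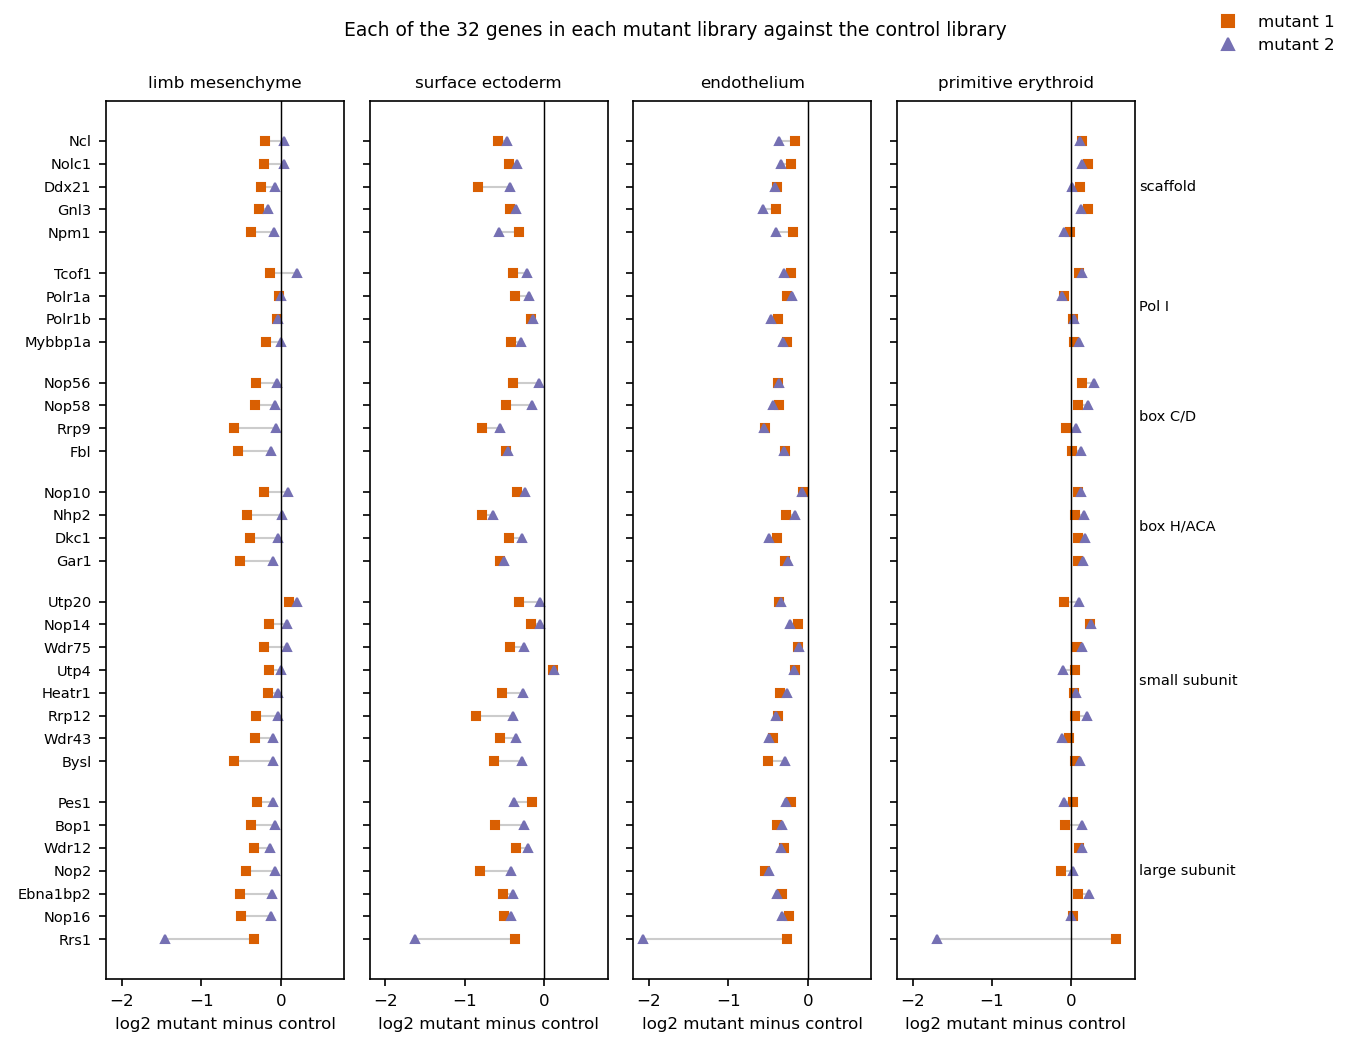
log2 difference of each of the 32 genes from the control library (x axis) in mutant 1 (squares) and mutant 2 (triangles), with 1 panel per cell class and genes grouped by role (right). In endothelium all 32 genes lie left of 0 in both mutants, in ectoderm 31 do, and in mesenchyme mutant 1 lies left of mutant 2 for 31 genes; Rrs1 in mutant 2 stands apart in every class.

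The nucleolar scaffold and assembly group holds the most abundant members. Npm1 (nucleophosmin, a histone chaperone that shuttles ribosomal particles) was at 6184, 4783 and 5808 CPM in mesenchyme of the control, mutant 1 and mutant 2, at 4530, 3625 and 3049 in ectoderm, and at 5083, 4464 and 3848 in endothelium, after scaling. The control was the highest of the 3 libraries in each of these classes. In erythroid cells Npm1 was at 1776, 1756 and 1670 CPM. Ncl (nucleolin, which binds the rRNA precursor) was at 2846, 2474 and 2923 CPM in mesenchyme, so that mutant 2 overlapped the control there. In ectoderm Ncl was at 2134, 1430 and 1545 CPM, a log2 difference of -0.52 ± 0.09 (SE) with an adjusted p of 0.82 in edgeR's test. The group also holds Nolc1, Gnl3 and the RNA helicase gene Ddx21. Of its 5 genes, 3 were lower in both mutants in mesenchyme (27.4% of all tested genes were), 5 in ectoderm (33.6%) and 5 in endothelium (34.9%).

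Genes for RNA polymerase I and rDNA transcription differed least in mesenchyme. Their median log2 difference was -0.03 there, -0.29 in ectoderm and -0.27 in endothelium. Polr1a, the largest subunit of the enzyme, was at 63.6, 62.5 and 63.6 CPM in mesenchyme, which is nearly the same level in all 3 libraries. Mybbp1a, a nucleolar regulator of Pol I, was at 214, 187 and 215 CPM in mesenchyme and at 193, 145 and 157 in ectoderm. Tcof1 (treacle, whose loss in humans causes Treacher Collins syndrome) was at 142, 129 and 163 CPM in mesenchyme, with mutant 2 above the control, and at 123, 93.9 and 106 in ectoderm, with both mutants below it.

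The box C/D group was lower in both mutants for 4 of 4 genes in mesenchyme, ectoderm and endothelium (27.4%, 33.6% and 34.9% of all tested genes were). Its medians there were -0.24, -0.39 and -0.39. Fbl (fibrillarin, the methyltransferase of these particles) was at 332, 229 and 306 CPM in mesenchyme, at 253, 181 and 183 in ectoderm and at 278, 228 and 225 in endothelium. The 2 mutants were close to each other in ectoderm and endothelium and apart in mesenchyme. Nop58, a core protein of the particle, was at 396, 317 and 378 CPM in mesenchyme and at 341, 265 and 252 in endothelium. Its partner Nop56 was at 351, 282 and 340 CPM in mesenchyme and at 271, 208 and 210 in endothelium. In erythroid cells Nop56 was at 203, 224 and 248 CPM, the reverse order of control and mutants. The box H/ACA group had medians of -0.19 in mesenchyme, -0.45 in ectoderm and -0.24 in endothelium. Nhp2, a core protein of these particles, had one of the lowest ectoderm values: 299, 174 and 191 CPM, a log2 difference of -0.72 ± 0.13 (SE). In mesenchyme it was at 341, 254 and 345 CPM. Nop10, the smallest core protein, was at 349, 333 and 331 CPM in endothelium, a log2 difference of -0.07 that was the closest to 0 of the 32 there. Gar1 was at 191, 134 and 178 CPM in mesenchyme and at 143, 97.1 and 101 in ectoderm.

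Among the 8 small subunit processing genes, medians were -0.08 in mesenchyme, -0.37 in ectoderm and -0.33 in endothelium. Bysl (bystin, needed late in small subunit assembly) was at 49.6, 33.0 and 46.2 CPM in mesenchyme, at 31.6, 20.3 and 25.9 in ectoderm and at 50.0, 35.2 and 40.9 in endothelium. Mutant 1 was the lowest library in all of them. Wdr43 was at 252, 201 and 235 CPM in mesenchyme and at 231, 170 and 165 in endothelium, where its log2 difference was -0.47 ± 0.08 (SE, adjusted p = 0.70 in edgeR's test). Wdr75 was at 101, 86.7 and 106 CPM in mesenchyme and at 94.8, 86.8 and 87.7 in endothelium. Both encode WD-repeat proteins of the complex that loads first onto the rRNA precursor.

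The 7 large subunit processing genes were lower in both mutants without exception in mesenchyme, ectoderm and endothelium (27.4%, 33.6% and 34.9% of all tested genes were). In ectoderm 31 and in endothelium 32 of all 32 members were lower, so the count does not set this group apart there. Its medians were -0.25, -0.46 and -0.36. Ebna1bp2 was at 196, 137 and 181 CPM in mesenchyme, at 128, 89.1 and 96.9 in ectoderm and at 227, 181 and 174 in endothelium. Wdr12, which works with Pes1 and Bop1 in the PeBoW complex, was at 120, 95.4 and 110 CPM in mesenchyme and at 102, 82.4 and 80.7 in endothelium. The control was the highest library for both genes in these classes. In their last 500 transcript bases, Fbl, Nop56, Npm1 and Pes1 share 31.2%, 23.1%, 17.8% and 16.9% of 60-base words with transcripts of other genes, so their counts are uncertain, while 21 of the 32 share none.

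Rrs1, a large subunit assembly factor encoded by a single exon (GRCm38 chr1:9545408-9547455, plus strand), had the most negative mesenchyme value of the 32 and was far lower in mutant 2 than in the other libraries. It was at 93.4, 74.1 and 34.0 CPM in mesenchyme, 61.2, 47.4 and 19.7 in ectoderm, 68.6, 57.4 and 16.3 in endothelium, and 33.8, 49.9 and 10.4 in erythroid cells. Mutant 2 was the lowest library in all 4 classes, also in erythroid cells, where mutant 1 was above the control. The log2 difference in mesenchyme was -0.79 ± 0.31 (SE, adjusted p = 0.36 in edgeR's test), and against mutant 1 alone it was -0.33. Of 6814 genes tested in all 4 classes, 36 were lower in mutant 2 than in both other libraries by more than 1 on the log2 scale in every class, and Rrs1 was the 1 member among them. A value that follows 1 library through unrelated classes cannot be told apart from a property of that library.

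The wider pathway was read from 113 further genes of ribosome biogenesis (Pol I cofactors, snoRNP assembly, subunit processing and the RNA exosome). None passed edgeR's adjusted p of 0.05 in any class. Their median log2 differences were -0.14 in mesenchyme, -0.26 in ectoderm, -0.22 in endothelium and 0.03 in erythroid cells. Lower in both mutants were 60 of 113 in mesenchyme, 100 of 113 in ectoderm, 101 of 112 tested in endothelium and 26 of 113 in erythroid cells, against 27.4%, 33.6%, 34.9% and 34.3% of all tested genes. At an unadjusted p under 0.05, 2, 10, 23 and 1 of them were lower, against 2.27%, 2.49%, 3.86% and 1.7% of all tested genes. Myc was at 34.8, 28.3 and 25.6 CPM in mesenchyme, 28.1, 25.3 and 23.7 in endothelium, 6.72, 4.56 and 7.56 in ectoderm and 39.0, 42.7 and 54.0 in erythroid cells. Mycl passed the filter on low counts in ectoderm alone, at 28.2, 39.3 and 24.9 CPM. Mycn, the MYC family member with the higher level in mesenchyme, was at 87.7, 77.5 and 119 CPM there, at 66.9, 49.3 and 60.1 in ectoderm and at 45.6, 48.9 and 37.5 in endothelium. Max, the partner of both, was at 56.0, 45.5 and 49.7 CPM in mesenchyme, 46.8, 39.2 and 42.9 in ectoderm, 59.5, 49.1 and 50.4 in endothelium, and 32.7, 32.9 and 34.0 in erythroid cells, the same order of control and mutants as most members. None of the 4 passed the test in any class.

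The share of a cell's UMIs that came from the 32 genes moved with the mitochondrial share of the cell. In mesenchyme of the control it had a median of 1.72% in cells with under 1% mitochondrial UMIs, 1.42% in cells of 1 to 4% and 0.61% in cells of 4 to 10%. The last kind also had few ribosomal protein UMIs (a median of 4.45% of UMIs, against 23.2% at 1 to 4%). The cells under 1% were shallow and poor in Malat1 UMIs. In the control their medians were 13529.5 UMIs and 0.009% Malat1, against 96718.5 UMIs and 0.25% at 1 to 4%. In mutants 1 and 2 the cells under 1% had medians of 16584.5 and 11485 UMIs, with 0.10% and 0.03% Malat1. The 4 to 10% cells were 21.6% of mesenchyme in the control, 37.0% in mutant 1 and 21.7% in mutant 2, and the cells under 1% were 36.5%, 10.1% and 9.76%. Erythroid cells showed no such fall but a small rise: medians were 0.52%, 0.60% and 0.61% in the control. They were 0.56%, 0.63% and 0.67% in mutant 1, and 0.54%, 0.59% and 0.64% in mutant 2. Within cells of 1 to 4% mitochondrial UMIs, a choice made after seeing the data, the mutants stood at 90.4% and 96.8% of the control in mesenchyme, 73.7% and 74.8% in ectoderm, 85.9% and 80.1% in endothelium, and 98.3% and 94.5% in erythroid cells. The ectoderm and endothelium percentages were close to those in all cells, but depth was not matched within this range. Control ectoderm cells of 1 to 4% had a median of 71604 UMIs, against 41886 and 35760 in the mutants. Control endothelial cells had 102433.5, against 71348 and 57366.5. Within cells of under 1%, the mutants stood at 84.9% and 92.8% of the control in mesenchyme and 113% and 108% in erythroid cells. Mutant 2 ectoderm and endothelium had too few such cells (10 and 15). Within cells of 4 to 10%, the values were 94.4% and 116% of the control in mesenchyme and 93.5% and 104% in endothelium, and ectoderm was at 5746, 4598 and 5388 CPM.

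**Figure D3:**
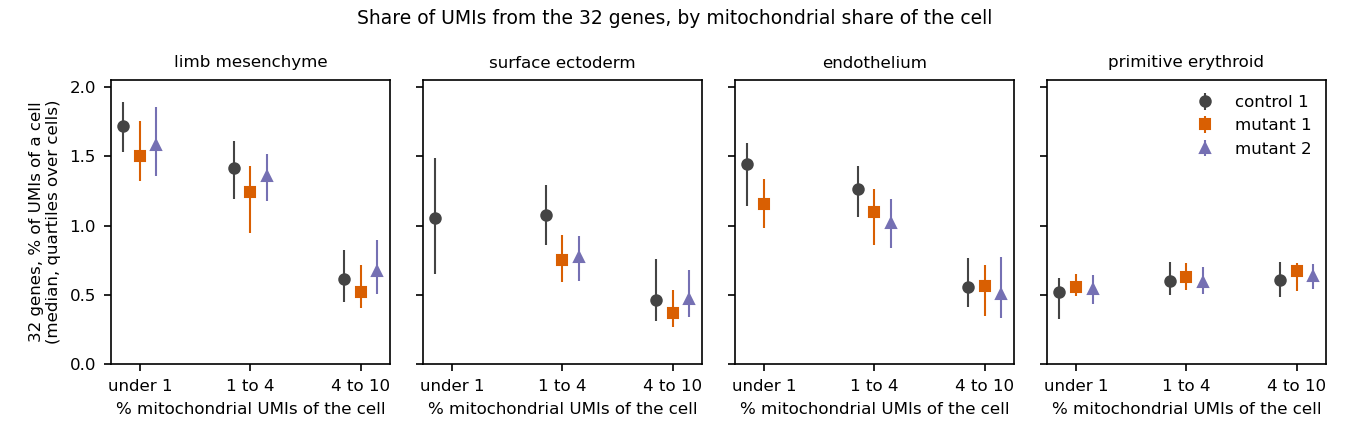
Share of a cell's UMIs from the 32 genes (y axis, %; median with quartiles over cells) by the cell's mitochondrial share (x axis, %) in each class and library; groups of under 20 cells are not drawn. The share is lowest at 4 to 10% in mesenchyme, ectoderm and endothelium (0.61% against 1.42% at 1 to 4% in control mesenchyme). In erythroid cells it is lowest under 1% and rises a little (0.52%, 0.60% and 0.61% in the control).

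Depth per cell moved with it too, and here the direction depended on the range. Control endothelial cells had a median of 86969 UMIs, against 62969 and 51576 in the mutants, and control ectoderm 44695.5 against 30689 and 27487.5, while mesenchyme was deeper in the mutants (30883, 35415 and 50355). Among cells of 80000 UMIs and over, the median share was 1.48%, 1.41% and 1.45% in mesenchyme and 1.30%, 1.13% and 1.01% in endothelium, with the control highest. Among cells of 40000 to 80000 it was 0.91%, 1.21% and 1.36% in mesenchyme, 0.83%, 0.83% and 0.83% in ectoderm, and 0.92%, 1.06% and 1.06% in endothelium, with the control lowest or level. In shallower mesenchyme cells the control was the highest again, at 1.30%, 0.67% and 0.88% from 20000 to 40000 UMIs, 1.67%, 0.50% and 0.78% from 10000 to 20000, and 1.58%, 0.96% and 1.32% under 10000. Ectoderm cells under 10000 UMIs were at 1.18%, 0.50% and 0.50%, and endothelial cells from 10000 to 20000 at 1.44%, 0.51% and 0.43%, the latter from 21 to 25 cells a library. Endothelial cells under 10000 UMIs were at 1.17%, 0.93% and 1.29%, with mutant 2 highest (89, 30 and 22 cells). Those from 20000 to 40000 were at 0.55%, 0.63% and 0.75%, with the control lowest (55, 46 and 92 cells). In sums over cells of 20000 to 60000 UMIs the median log2 difference was -0.09 in mesenchyme, -0.12 in ectoderm and 0.15 in endothelium, where 4 members passed edgeR's test as higher (21.7% of all genes passed in that sum). Within cells of both that depth and 1 to 4% mitochondrial UMIs it was -0.09, -0.27 and -0.10. With every cell thinned to 10000 UMIs the medians were -0.27, -0.36 and -0.26. The ectoderm median was below 0 in all 3 of these sums, though among ectoderm cells of 20000 to 40000 UMIs the control had the lowest median share (0.47%, against 0.62% and 0.66%). The endothelium median was above 0 in 1 of the 3. What part depth and cell quality have in the differences was not tested.

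**Figure D4:**
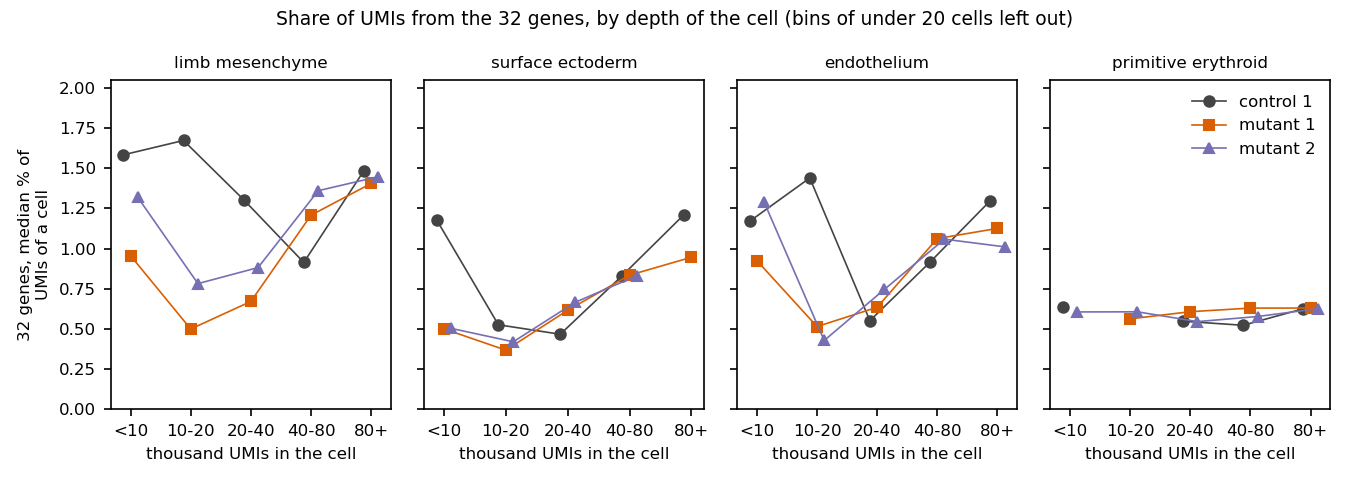
Median share of a cell's UMIs from the 32 genes (y axis, %) by the number of UMIs in the cell (x axis, in units of 1000) in each class and library. In endothelium the control lies highest at 80000 UMIs and over (1.30% against 1.13% and 1.01%) and lowest at 40000 to 80000 (0.92% against 1.06% and 1.06%), and the erythroid lines are flat.

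Cells with a Cdkn1a UMI were 1.82% of control mesenchyme, 18.7% in mutant 1 and 18.9% in mutant 2. The exact 95% binomial bounds were 1.11 and 2.79 for the control, 16.5 and 21.0 for the first mutant library, and 17.3 and 20.6 for the other. Thinned to 10000 UMIs they were 0.58%, 13.5% and 12.9%, with 237, 117 and 212 shallower cells left out. In erythroid cells, at median depths of 58360.5 to 91070.0 UMIs, the unthinned share was 6.32%, 4.75% and 6.90%. Ectoderm held many in all libraries (52.5%, 51.6% and 38.7%), and endothelium 19.8%, 29.2% and 13.3%. Thinned to the same depth, the shares were 27.0%, 29.7% and 27.6% in ectoderm, 5.81%, 9.71% and 2.84% in endothelium and 3.29%, 1.00% and 2.70% in erythroid cells. Cdkn1a in mesenchyme was at 1.60, 65.6 and 70.2 CPM, a log2 difference of 5.40 ± 0.41 (SE).

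Within mutant mesenchyme, cells with and without a Cdkn1a UMI were at about the same summed level of the 32 genes. In mutant 1 the level was 12215 CPM in the 222 cells with one and 11540 in the 967 without; in mutant 2 it was 12874 in 412 cells and 13253 in 1771. The order of the 2 kinds of cell differed between the mutants. The median log2 difference over the 32 was -0.02 (0.04 in mutant 1 and -0.07 in mutant 2), against -0.01 over all genes, and 14 of 32 were lower in cells with a Cdkn1a UMI in both mutants (40.2% of all genes were). Cells with a UMI were deeper in mutant 1 (a median of 43876.5 against 33469 UMIs) and only slightly so in mutant 2 (52052 against 49845). Within cells of 20000 to 60000 UMIs the median was -0.09, and with 1 to 4% mitochondrial UMIs as well it was -0.14, with 23 of 32 lower in both mutants (33.7% of all genes).

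In this contrast single members did pass edgeR's test with library as a block: 6 were lower and 1 was higher, against 14.3% of all 10258 genes lower and 15.8% higher (30.1% in either direction). The 6 lower ones were Bysl (-0.31), Rrp12 (-0.27), Rrs1 (-0.25), Heatr1 (-0.24), Nop2 (-0.24) and Wdr75 (-0.21 on the log2 scale). Bysl, Rrp12, Heatr1 and Wdr75 belong to small subunit processing, but so does the 1 member that was higher, so that group had no common direction. Heatr1 and Rrp12 are named after their values were seen. DESeq2 called none of these 6, and of 8 readings Bysl and Rrs1 passed in 4, Heatr1, Rrp12 and Wdr75 in 5 and Nop2 in 7. In the edgeR readings 9.32% to 32.1% of all genes passed in either direction, and DESeq2 called 1192 genes. The readings reuse the same cells, so passing in several of them is not repeated evidence. The higher one was Utp20, a very large scaffold protein of small subunit assembly, singled out here after its values were seen. Utp20 was at 124 CPM in cells with a Cdkn1a UMI and 67.9 in those without in mutant 1, and at 119 and 70.7 in mutant 2, with counts of 1511, 2860, 2603 and 6069 UMIs. The log2 difference was 0.87 ± 0.06 (SE, adjusted p = 4.4e-42 by edgeR), it passed in 8 of 8 readings including DESeq2, and it lay between 0.79 and 1.09 in them. That p rests on a spread pooled over genes. In cells of 20000 to 60000 UMIs, where a gene's own spread had some weight, edgeR's adjusted p for Utp20 was 5.1e-06. Control mesenchyme was at 68.9 CPM without a Cdkn1a UMI and at 70.2 in the 20 cells with one (119 UMIs, exact Poisson interval 58.2 to 84.0, which covers counting error only). In ectoderm, where Cdkn1a was detected in the control as well, Utp20 was at 52.5 CPM with and 58.6 without a Cdkn1a UMI in the control, 40.7 and 54.1 in mutant 1, and 55.0 and 54.2 in mutant 2. Endothelium gave 76.8 and 77.4 in the control, 58.5 and 63.1 in mutant 1, and 60.6 and 63.9 in mutant 2. The higher value thus appeared in mutant mesenchyme and in neither of these classes, though the difference between classes was not tested. These values are CPM without scaling between libraries.

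**Figure D5:**
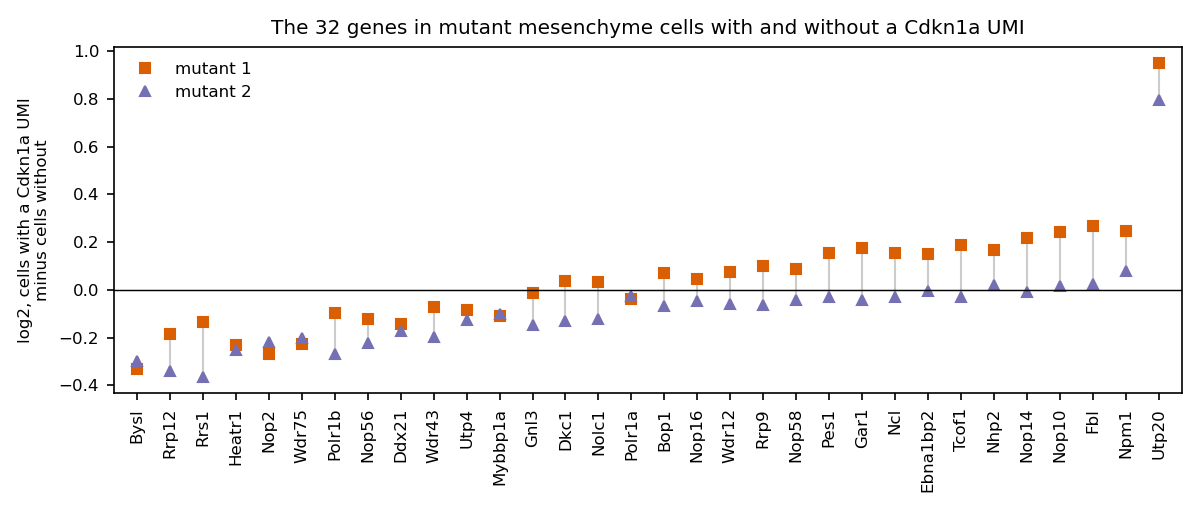
log2 difference between mutant mesenchyme cells with and without a Cdkn1a UMI (y axis) for each of the 32 genes (x axis, ordered by the fitted value), in mutant 1 (squares) and mutant 2 (triangles). Bysl lies lowest by the fitted value (-0.31), and Utp20 lies above all others at 0.95 and 0.79.

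Mesenchyme cells without a Cdkn1a UMI were 1080 of 1100, 967 of 1189 and 1771 of 2183 mesenchyme cells in the control, mutant 1 and mutant 2. With that overlap their mutant difference had to lie near that of all mesenchyme, so its closeness says nothing about Cdkn1a. The median over the 32 genes in these cells was -0.17 (-0.29 in mutant 1 and -0.02 in mutant 2). Lower in both mutants were 17 of 32 (26% of all genes were), against 22 of 32 in all mesenchyme (27.4%). In edgeR's test 0 passed (0.675% of 10071 genes did). These values depended on depth as well. In cells of 20000 to 60000 UMIs the median was -0.08 (-0.25 and 0.11), with 5 of 32 lower in both mutants (23.5% of all genes). With 1 to 4% mitochondrial UMIs as well, 8 of 32 were (25.7%). Thinned to 10000 UMIs, the median was -0.24 and 19 of 32 were lower in both (29.4%). A cell without a Cdkn1a UMI may still express the gene below what was captured. Grouped by expression, mesenchyme of the mutants held a cluster led by Ptprt, Ano3 and Cdkn1a, with 0 cells in the control, 110 in mutant 1 and 185 in mutant 2. Its median share of UMIs from the 32 genes was 0.92% and 1.19%. A cluster led by Lhx9 and Hoxd9, with a control median of 115056.5 UMIs per cell, was at 1.57% in the control, 1.41% in mutant 1 and 1.42% in mutant 2. One led by Hoxd9, Lhx9 and Jaml was at 1.71%, 1.66% and 1.62%, and made up 40.1%, 6.48% and 9.53% of mesenchyme. Its cells had low median mitochondrial shares (0.11%, 0.09% and 0.22%) and Malat1 shares (0.008%, 0.020% and 0.018%). Clusters led by Gm14226 (1.29%, 1.18% and 1.17%) and Taco1 (1.33%, 0.99% and 1.32%) had the control highest. Those led by Gpc5 (0.64%, 0.64% and 0.73%) and by Kcnh7, Rspo2 and Epha3 (0.50%, 0.47% and 0.62%) had mutant 2 highest. Cells of these last clusters had high median mitochondrial shares (5.00% to 6.04%). Their median ribosomal protein shares were low and highest in mutant 2 (4.29%, 6.60% and 8.56%, and 3.24%, 4.55% and 8.09%). What part this make-up has in the mesenchyme sums was not tested.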

How the data were processed

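Single-cell RNA of E9.5 mouse forelimb buds was measured in 1 control and 2 mutant pools with 3′ tags. The deposited matrices hold raw UMI counts per gene and barcode made with Cell Ranger 7.0.0, per the file headers, and mm10 and Seurat 4.0.0 are named in the submitters' processing notes. Annotation release and intron handling: not given in the sources used here. Library totals were 178159788 to 225032823 UMIs.

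From these counts, cells with at least 500 genes and under 10% mitochondrial UMIs were kept, and Scrublet doublets (scanpy 1.11.5, expected rate 0.06) were removed: 41, 96 and 122 cells. A class needed at least 3 of its 8 markers and 2 more than any other of 9 lists. UMIs were summed per class and library, and genes averaging 5 CPM or more were tested with edgeR 4.0.16 (quasi-likelihood, TMM, Benjamini-Hochberg adjustment over all tested genes, threshold 0.05). CPM of single genes in comparisons are TMM-scaled unless said otherwise, and summed levels are CPM without TMM. The log2 differences by library use a prior count of 2. With 1 control, class fits have 1 residual degree of freedom. In the mesenchyme class fit and the Cdkn1a contrast, edgeR's prior degrees of freedom were infinite. There the spread was pooled over genes and was not each gene's own. Interactions used 12 sums with library and class terms, and the Cdkn1a contrast 4 sums with library as a block. The edgeR class fit was checked on counts simulated from mesenchyme, with changes larger than the fitted differences of the members. The interaction, blocked and DESeq2 fits were not checked in this way. DESeq2 1.42.0, other filters, gates, depth windows, thinning and leaving out libraries were alternatives. Named genes are, per role, the 2 most abundant in mesenchyme and the one with the most negative mesenchyme value, beside the MYC family and Cdkn1a. Members and lists were chosen with earlier results of these data known. E-box matches come from RefSeq promoter windows on GRCm38.p6, and gene coordinates from GENCODE on GRCm38. Intervals cover counting error only.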

Additional observations from a re-analysis of the deposited data

Results flagged for a closer look

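The median log2 difference between mutants and control over the 32 genes differed in direction between erythroid cells and each of the other 3 classes. It was lower by 0.26 in mesenchyme than in erythroid cells (a class minus erythroid value of -0.26), with mutants 1 and 2 at -0.31 and -0.05 against 0.05 and 0.12. In ectoderm the class minus erythroid value was -0.47 and in endothelium -0.38, again with both mutants below 0 in the class and above 0 in erythroid cells. The difference of these medians was not tested. Gene by gene, edgeR's interaction test of erythroid cells against mesenchyme called 0 of the 32 at an adjusted p of 0.05. In that test 6 had an unadjusted p under 0.05, and the share of all genes at that level was not counted. Without TMM factors the erythroid median was -0.05, so the opposite direction rests on the scaling. For endothelium it depended on depth as well: in cells of 20000 to 60000 UMIs, with TMM, the endothelium median was 0.15 and the erythroid median 0.16. The mesenchyme and ectoderm medians were -0.09 and -0.12 in that window.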

How the results depend on the processing

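No paired analysis was possible because only 1 control library is compared and its title carries no replicate number. Leaving out each mutant in turn gave medians of -0.31 to -0.05 (mesenchyme), -0.45 to -0.32 (ectoderm), -0.33 to -0.30 (endothelium), 0.05 to 0.12 (erythroid cells), -0.07 to 0.04 between cells with and without a Cdkn1a UMI, and -0.29 to -0.02 in mesenchyme without one. In cells of 20000 to 60000 UMIs, 6 members were lower in both mutants in mesenchyme (24.2% of all tested genes), 15 in ectoderm (36.8%) and 9 in endothelium (44.5%), with medians of -0.12 in ectoderm, 0.15 in endothelium and 0.16 in erythroid cells, and 4 endothelial members passed as higher (21.7% of genes passed). The same window turned the log2 difference positive in endothelium for Ebna1bp2 (0.53), Wdr12 (0.090), Wdr75 (0.36), Nop58 (0.11), Fbl (0.35), Npm1 (0.76), Ncl (0.62), Nop10 (1.14), Nhp2 (0.80), Gar1 (0.57), Mybbp1a (0.19) and Tcof1 (0.28), in ectoderm for Wdr12 (0.013), Nop58 (0.035), Npm1 (0.22), Ncl (0.18), Nop10 (0.52) and Tcof1 (0.11), and in mesenchyme for Ncl (0.12), Nop10 (0.20) and Mybbp1a (0.060). With 1 to 4% mitochondrial UMIs as well, a choice made after seeing the data, 11 members were lower in both mutants in mesenchyme (26.1% of all tested genes), 17 in endothelium (41.9%) and 5 in erythroid cells (35.6%), and medians were -0.27 (ectoderm), -0.10 (endothelium), 0.19 (erythroid) and -0.14 (Cdkn1a contrast). Positive there were Ebna1bp2 (0.18), Wdr75 (0.25), Npm1 (0.20), Ncl (0.35), Nop10 (0.45), Nhp2 (0.16), Gar1 (0.28) and Tcof1 (0.27) in endothelium, and Wdr75 (0.066) and Nop10 (0.11) in ectoderm. Without TMM factors the median was -0.27 in endothelium and -0.045 in erythroid cells, where 17 members were lower in both mutants (64.4% of all tested genes). Thinning gave -0.26 in endothelium, with Nop10 at 0.021. Without barcodes shared between libraries, also chosen after seeing the data, 1 erythroid member was lower in both mutants (36% of all tested genes). The cause of these changes was not tested.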
